A study of Sus scrofa with 4 samples.

Results

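The proteasome genes of the 4-cell pig embryo (Sus scrofa) were described across 2 libraries labelled control and 2 libraries labelled TFAP2C knockdown. Members were all rows of the deposited table whose symbol begins with PSMA to PSMG and a digit, or reads SEM1, ADRM1, POMP or PAAF1. The rule took 58 of 35395 transcript rows, which sum to 50 of 25560 gene names. In this set 49 genes encode subunits, activators, an inhibitor or assembly factors of the proteasome. The other is PSMC3IP, which carries the spelling only and encodes a partner of the meiotic recombinases, and it stood at 0.256 to 0.817 FPKM. FPKM is a level per transcript length and library size. PSMB8, PSMB10 and PSMB11 were not analysed here.

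The proteasome is the protease that degrades proteins tagged with ubiquitin. Its core is a barrel of alpha rings, which gate the entrance, and beta rings, which hold the cutting sites. A regulatory cap binds the ends of the barrel. The base of the cap unfolds substrates with ATPases, and its lid removes ubiquitin. In early embryos the proteasome takes part in clearing proteins stored in the oocyte, while the embryo's own genome becomes active. The series asked how gene expression differs when TFAP2C, a transcription factor of the trophectoderm and germ line, is targeted.

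The cytoplasm was injected with siRNA, a short RNA that degrades a chosen transcript, and embryos were sampled at the 4-cell stage. The genotype label reads TFAP2C KD for the libraries titled SiTF and Control for the others. What the controls received, the origin of the embryos and their number per library are not given in the labels. The treatment protocol names the injection for all 4 libraries, the treatment label only for the knockdowns. No label says that a group's libraries came from separate pools, so p-values measure the spread of these libraries alone, and that spread may be technical.

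The targeted gene did not check the labels. TFAP2C was listed at 14.7 and 7.78 FPKM in labelled controls 1 and 2 and at 0.448 and 3.11 in labelled knockdowns 1 and 2. The ratio of deposited coverage to FPKM has a median over rows of 6.69, 7.03, 6.07 and 8.83 in the same order, but reads 6.07, 8.83, 6.69 and 7.03 in the TFAP2C row, the medians of the other group's libraries. Libraries are therefore called labelled control and labelled knockdown, and every difference is labelled knockdown minus labelled control. Transcripts of the mitochondrial genome made up 21.7% and 29.1% of TPM under the control label, against 45.8% and 31.9% under the knockdown label. Of 13 oocyte and early embryo markers, 10 reached 1 FPKM in all 4 libraries and none was at 0 throughout. Their sum was 3374 and 3089 FPKM under the control label, against 1574 and 2006 under the knockdown label. H1FOO alone stood at 1259 and 1054 FPKM under the control label, against 252 and 346 under the knockdown label. ZP4, DPPA3, DPPA5 and ZAR1 overlapped between the groups, and every other marker of this list was lower in both labelled knockdowns. The 18 of 21 cumulus and granulosa markers found in the table summed to 16.6 to 23.3 FPKM. Of these 18, 3 (INHBA, FST and VCAN) reached 1 FPKM in all 4 libraries, and PTGS2 was at 0 in every library. The part of these shifts in the results was not tested.

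Proteasome genes spanned a wide range of levels. On the mean over the 4 libraries, 4 genes stood at 100 FPKM or more, 18 at 10 to 100, 18 at 1 to 10 and 9 under 1. PSMB2, a structural beta subunit, was the most abundant at 492, 353, 454 and 534 FPKM in labelled controls 1 and 2 and labelled knockdowns 1 and 2. It ranked 97 of the 9850 genes whose mean reached 1 FPKM, which were the genes tested. Its groups overlapped. PSMG1, a chaperone that starts alpha ring assembly, followed with 399 and 289 FPKM under the control label, against 200 and 298 under the knockdown label. The groups of PSMG1 overlapped too. PSMA2, an alpha subunit, and SEM1, the smallest lid subunit, completed those at 100 FPKM or more.

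Subunits that share a ring did not share a level. The highest mean in the alpha ring, that of PSMA2, was 105 times the lowest, that of PSMA3. Among the 6 tested subunits of the beta ring the highest was 111 times the lowest. PSMB2 alone supplied 94.2% and 90.6% of the summed FPKM of the beta ring genes under the control label, against 72.7% and 73.6% under the knockdown label.

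Several subunits were listed at 0. PSMB3 was at 0 in both labelled controls and in labelled knockdown 2, with 1.38 FPKM in labelled knockdown 1. ADRM1, the ubiquitin receptor of the base, was at 0 in 3 libraries and at 0.246 FPKM in labelled knockdown 1. PSMA7 was at 0 in labelled control 1 and labelled knockdown 2 and at 7.39 and 5.66 FPKM in the other two. PSME1 was at 0 in all 4. PSMA7, PSMB3 and ADRM1 encode standard parts of the particle. No read counts were used, and the cause of the values of 0 was not tested.

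**Figure D1:**
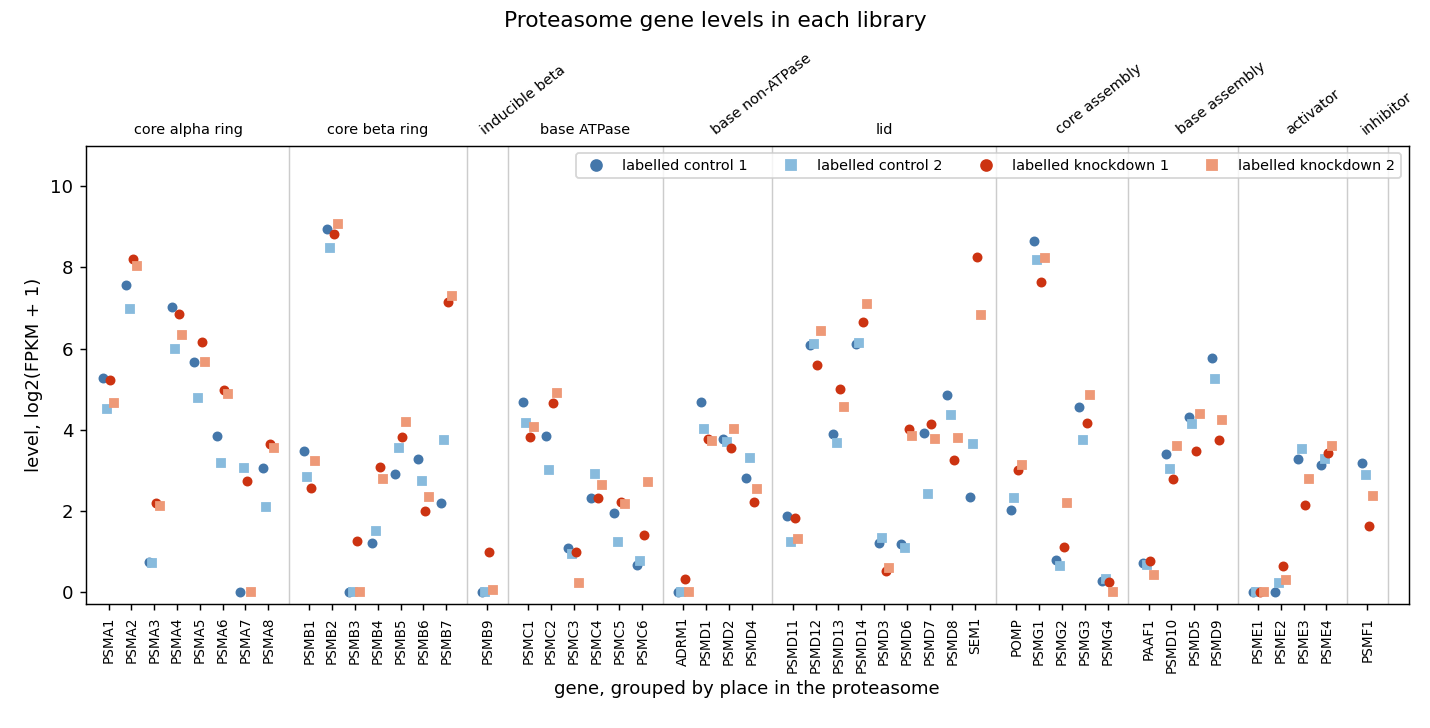
Level of each of the 49 proteasome genes in each library as log2(FPKM + 1), grouped by place in the proteasome, with circles for library 1 and squares for library 2 of each group. PSMB7, SEM1 and PSMD6 show the widest gaps between the labelled knockdowns (red) and labelled controls (blue), and PSMB2 and PSMG1 are high in every library.

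A total of 40 proteasome genes passed the filter of a mean of 1 FPKM. Of these, PSMA3, PSMB4, PSMB7, PSMD6 and SEM1 rose, and none fell (limma, Benjamini-Hochberg adjusted p under 0.05). In bulk RNA such as this, fewer cells of a type and less RNA per cell cannot be told apart. Over all 9850 genes tested the share called higher was 5.11% and the share called lower 1.46%, against 12.5% and 0% of the tested proteasome genes. Without adjustment 13 were higher and 5 lower at p under 0.05 in limma, where the shares of all genes tested were 14.0% and 13.9%, so that the 5 lower genes (12.5%) were near the background. Of the 40, 3 (PSMA3, PSMC6 and PSMG2) had a labelled control mean under 1 FPKM, so they passed the filter through the labelled knockdowns, and none passed in the reverse way. Without labelled knockdown 1, and likewise without labelled knockdown 2, limma made no call among these genes or over the whole table. It called 3 without labelled control 1 and 3 without labelled control 2, where it called 1.43% and 4.86% of all genes higher. In these fits the lone library of a group is assumed to vary like the other group.

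The median log2 fold change of the 40 tested proteasome genes was 0.28, on the log2(FPKM + 1) scale, and 25 of them were positive. Over all tested genes the median was -0.13, and 42.4% were positive. Scaling moved both medians. With TPM, which fixes the sum of each library, the proteasome median was 0.0089 and the median of all genes -0.39, and with median-ratio scaling they were 0.44 and 0.0055. Without labelled control 1 the proteasome median was 0.47, and without labelled control 2 it was 0.10. The labelled controls themselves differed. Labelled control 1 was above labelled control 2 for 27 of the 40 (67.5%), against 49.5% of all tested genes. The median absolute difference between the labelled controls was 0.53 log2 units for these 40 genes and 0.30 for all tested genes.

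**Figure D2:**
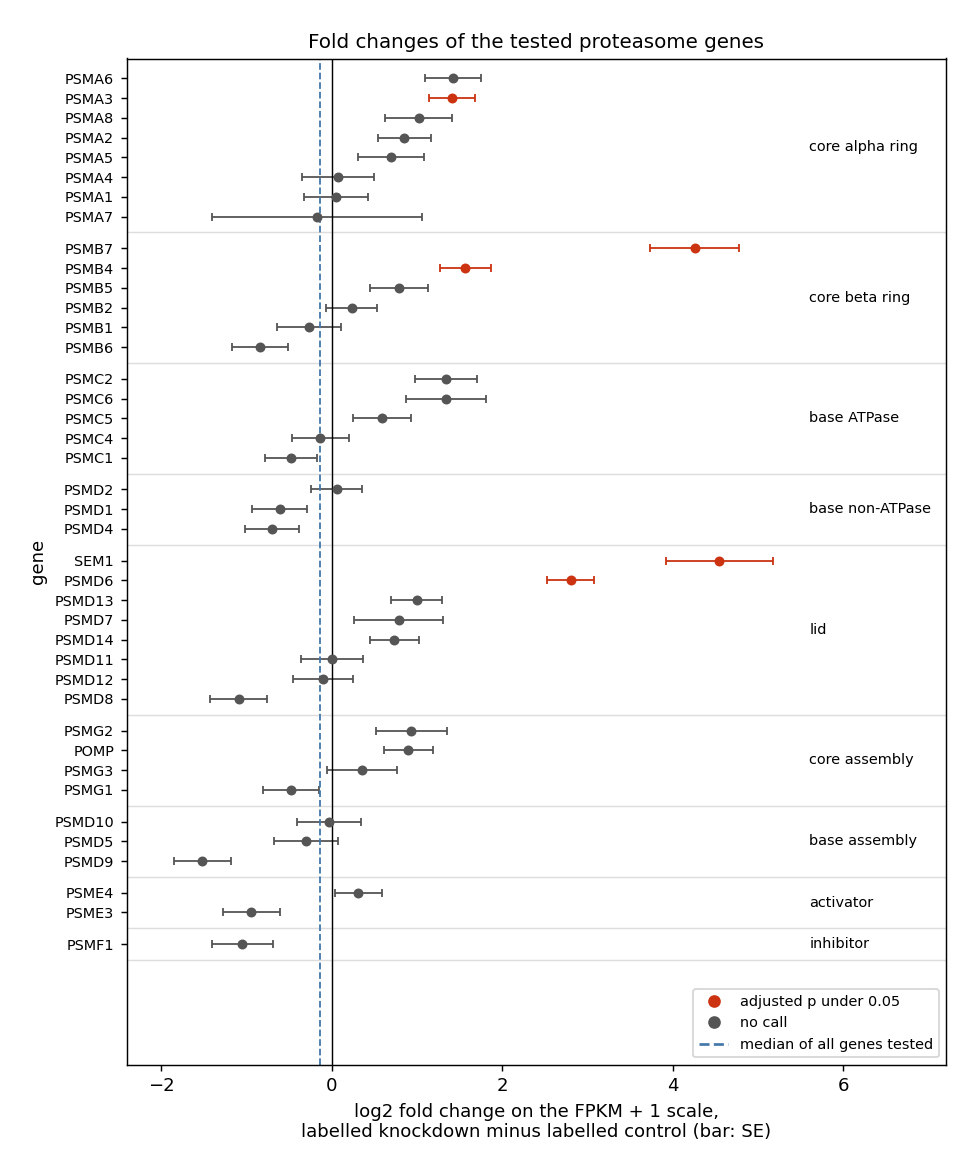
Log2 fold change of the 40 tested proteasome genes on the FPKM + 1 scale, labelled knockdown minus labelled control, with the standard error as a bar and red for an adjusted p under 0.05. The 5 called genes lie between 1.41 and 4.54, and the dashed line marks the median of all tested genes, -0.13.

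In the alpha ring, 1 of 8 tested genes rose and none fell, with a median fold change of 0.78. Over all genes tested, 5.11% were called higher and 1.46% lower, with a median of -0.13. PSMA3 stood at 0.682 and 0.653 FPKM under the control label, against 3.54 and 3.35 under the knockdown label. The labelled controls were alike, and both labelled knockdowns were higher. This gave a log2 fold change of 1.41 (SE 0.27, limma adjusted p = 0.0431). The call held under 4 alternative settings and was lost under 11, among them TPM (adjusted p = 0.0519 in limma) and leaving out any library. PSMA3 had a labelled control mean under 1 FPKM, so it passed the filter through the labelled knockdowns. PSMA3 lies on chromosome 1, 187342231 to 187371149 in Sscrofa11.1.

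PSMA6 had about the same log2 fold change as PSMA3 on this scale, but a smaller ratio of means (2.76 against 5.16), and it just missed the threshold. It stood at 13.4 and 8.06 FPKM under the control label, against 30.7 and 28.6 under the knockdown label. The groups did not overlap. The log2 fold change was 1.42 (SE 0.33, limma adjusted p = 0.0623), and it passed with median-ratio scaling (adjusted p = 0.0472 in limma). PSMA2 stood at 187 and 124 FPKM under the control label, against 293 and 260 under the knockdown label, again without overlap (log2 fold change 0.85, SE 0.31, limma adjusted p = 0.147). PSMA8, the alternative alpha subunit known from the testis in mice, stood at 7.31 and 3.24 FPKM under the control label, against 11.5 and 10.7 under the knockdown label. Its fold change was 1.02 (SE 0.39, limma adjusted p = 0.159). PSMA8 resembles PSMA7, so that reads could be split between them, which the table does not show. PSMA1 and PSMA4 had fold changes of 0.053 and 0.080, which both became negative with TPM. PSMA7, listed at 0 in a library of each group, had the largest standard error among all tested proteasome genes, 1.23.

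PSMA5 changed its transcript row and not, past the threshold, its sum. Its 2 rows are alternative RefSeq models of the same gene on chromosome 4, 110695429 to 110717308. Row XM_021088748.1 stood at 49.5 and 26.4 FPKM under the control label and was listed at 0 in both labelled knockdowns. Row XM_021088747.1 was listed at 0 in both labelled controls and stood at 70.7 and 49.8 FPKM in the labelled knockdowns. Each library thus gave the whole level of the gene to a single row, and the row differed between the groups. Fitted as rows, XM_021088747.1 was higher (limma, Benjamini-Hochberg adjusted p = 0.0361 over 11230 rows) and XM_021088748.1 was lower (limma adjusted p = 0.0408). Of those rows 0.623% were called higher and 0.303% lower. Each PSMA5 row passed the filter of a mean of 1 FPKM only through the group where it was high. The 2 calls describe the same exchange, so they are not separate results and add no support to it. Both row calls were lost on leaving out any library, with a lowest limma adjusted p of 0.0607. The summed level of PSMA5 was 38 ± 16.4 FPKM under the control label and 60.3 ± 14.8 in the labelled knockdowns (SD, n = 2 each), so that its log2 fold change was 0.70 (SE 0.39, limma adjusted p = 0.298).

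Exchanges of the leading row were common in the table at large, and complete ones were not. Among 3349 tested genes with over 1 row and a level above 0 in every library, the leading row differed between the 2 labelled controls in 19.8% and between the 2 labelled knockdowns in 21.3%. In 134 genes (4.00%) the leading row was the same within each group and different between the groups. In 34 (1.02%), PSMA5 among them, each leading row was also listed at 0 in both libraries of the other group. Of the 6 proteasome genes in this set, only PSMA5 changed its leading row between the groups.

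**Figure D3:**
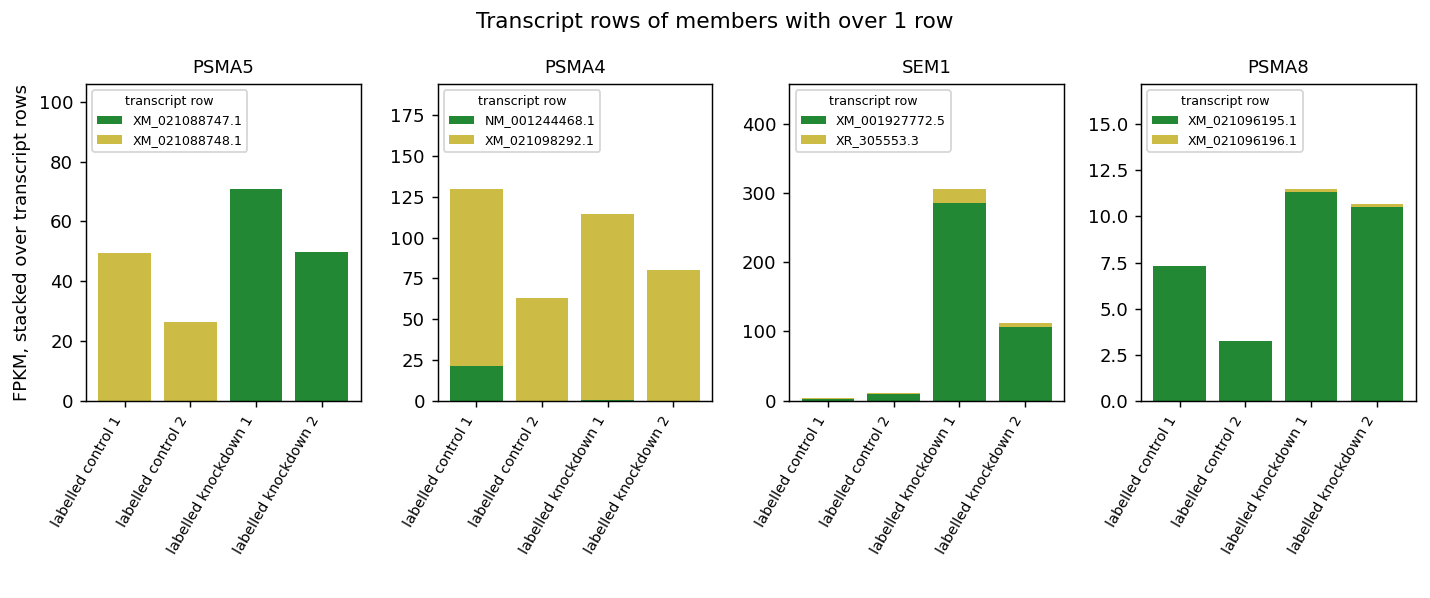
FPKM of each library for 4 proteasome genes with 2 transcript rows, stacked by row. PSMA5 is carried by XM_021088748.1 in both labelled controls and by XM_021088747.1 in both labelled knockdowns, while PSMA4, SEM1 and PSMA8 keep the same leading row in all 4 libraries.

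PSMA4 used its second row in a single library. NM_001244468.1 held 21.2 FPKM, 16.4% of the gene, in labelled control 1 and 0 to 0.238 FPKM in the other libraries. The leading row of PSMA4 stood at 108 and 63 FPKM under the control label, against 114 and 80.1 under the knockdown label, with overlap. The second rows of PSMA8 and PSME4 were listed at 0 in both labelled controls and made up 0.566% to 1.55% of their genes in the labelled knockdowns.

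In the beta ring, 2 of 6 tested genes rose and none fell, with a median fold change of 0.51. The shares of all genes tested were 5.11% higher and 1.46% lower, with a median of -0.13. PSMB7, which carries the trypsin-like cutting site, stood at 3.58 and 12.3 FPKM under the control label, against 141 and 156 under the knockdown label. The labelled controls differed more than 3-fold, yet both lay far under the labelled knockdowns. The means were 7.95 ± 6.19 and 148 ± 11 FPKM (SD, n = 2 each), a ratio of 18.7. This gave a log2 fold change of 4.26 (SE 0.52, limma adjusted p = 0.0159), or 3.48 without labelled control 1 and 5.03 without labelled control 2. Without labelled knockdown 1 or 2 it was 4.33 or 4.18 and missed the threshold (adjusted p = 0.184 and 0.114 in limma). PSMB7 lies on chromosome 1, 265172257 to 265235389.

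PSMB4, a structural subunit on chromosome 4, 97835544 to 97837909, was the other beta ring gene that rose. It stood at 1.32 and 1.84 FPKM under the control label, against 7.43 and 5.88 under the knockdown label, without overlap. The log2 fold change was 1.57 (SE 0.29, limma adjusted p = 0.0409), and the call was lost with a pseudocount of 0.1 (adjusted p = 0.0502 in limma) and on leaving out any library (adjusted p = 0.0848 to 0.214).

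Fold changes of the other catalytic subunits were smaller in size, and PSMB6 had the opposite sign. PSMB5, which carries the chymotrypsin-like site, stood at 6.45 and 10.6 FPKM under the control label, against 13.1 and 17.3 under the knockdown label (log2 fold change 0.79, SE 0.34, limma adjusted p = 0.200). PSMB6, which carries the caspase-like site, stood at 8.78 and 5.67 FPKM under the control label, against 2.98 and 4.10 under the knockdown label, below the labelled controls without overlap (log2 fold change -0.84, SE 0.33, limma adjusted p = 0.167). The 3 subunits thus had fold changes of 4.26, 0.79 and -0.84, and the difference between the subunits was not tested. PSMB1, another beta ring gene, stood at 10.2 and 6.12 FPKM under the control label, against 4.93 and 8.34 under the knockdown label. Its groups overlapped, and its log2 fold change was -0.26 (SE 0.38, limma adjusted p = 0.680). PSMB9, the interferon-inducible counterpart of PSMB6, came from a non-coding record and was listed at 0 in both labelled controls and at 0.966 and 0.0274 FPKM in the labelled knockdowns. The 4 immune markers summed to 2.46 and 3.95 FPKM under the control label, against 5.52 and 4.46 under the knockdown label, mostly from B2M, and their part in the PSMB9 values was not tested. CD74 and TAP1 were at 0 in both labelled controls and at no more than 0.264 FPKM in the labelled knockdowns. PTPRC stood at 0.0487 and 0.0807 FPKM under the control label, against 0 and 0.250 under the knockdown label, with overlap.

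None of the 5 tested ATPases of the base passed the threshold, and their median was 0.60. At an unadjusted p under 0.05 in limma 2 were higher and 0 lower, against 14.0% and 13.9% of all genes tested. PSMC2 stood at 13.4 and 7.07 FPKM under the control label, against 24.2 and 28.7 under the knockdown label, without overlap (log2 fold change 1.34, SE 0.36, limma adjusted p = 0.0868). PSMC6 stood at 0.587 and 0.701 FPKM under the control label, against 1.63 and 5.54 under the knockdown label, which differed from each other by more than the labelled controls did (log2 fold change 1.34, SE 0.47, limma adjusted p = 0.138). PSMC1 stood at 24.7 and 16.8 FPKM under the control label, against 13.2 and 15.7 under the knockdown label, the lowest fold change among the ATPases at -0.47 (SE 0.31). PSMC5 and PSMC4 had fold changes of 0.60 and -0.13, the latter positive with median-ratio scaling. PSMC3 stayed under the filter at 0.167 to 1.11 FPKM.

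The 3 tested other subunits of the base had a median fold change of -0.61 and no call. An unadjusted p under 0.05 in limma was reached by 0 of them, against 14.0% higher and 13.9% lower over all genes tested. PSMD1, a scaffold of the base, stood at 24.7 and 15.3 FPKM under the control label, against 12.6 and 12.2 under the knockdown label (log2 fold change -0.61, SE 0.32, limma adjusted p = 0.277). PSMD4, a ubiquitin receptor, stood at 6.04 and 8.93 FPKM under the control label, against 3.62 and 4.79 under the knockdown label (log2 fold change -0.69, SE 0.32, limma adjusted p = 0.220). PSMD2, the other scaffold, stood at 12.6 and 11.9 FPKM under the control label, against 10.8 and 15.2 under the knockdown label, with overlap. Its fold change was 0.061 (SE 0.30), which was negative with TPM.

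The lid had the highest summed gain. Its 9 genes summed to 201 and 189 FPKM under the control label, against 526 and 394 under the knockdown label. SEM1 alone supplied 2.01% and 6.14% of that sum under the control label, against 57.9% and 28.3% under the knockdown label. Of 8 tested lid genes, 2 rose and none fell, with a median fold change of 0.76. Among all genes tested, 5.11% were called higher and 1.46% lower, with a median of -0.13.

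SEM1, a small acidic lid subunit that also binds the repair protein BRCA2, stood at 4.03 and 11.6 FPKM under the control label, against 305 and 112 under the knockdown label. The libraries of each group differed over 2-fold, and the groups lay far apart. This gave a log2 fold change of 4.54 (SE 0.63, limma adjusted p = 0.0198), between 3.82 and 5.26 on leaving out each library in turn. It kept its call without either labelled control and lost it without labelled knockdown 1 or 2 (adjusted p = 0.184 and 0.0872 in limma). The coding row XM_001927772.5 held 68.6% and 79.2% of the gene under the control label, against 93.3% and 95.6% under the knockdown label. The remainder was in XR_305553.3, a record of a non-coding transcript. Fitted as rows, neither passed the threshold (limma adjusted p = 0.110 for the coding row and 0.257 for the other). The gene sum of SEM1 also lost its call with a replicate block added to the fit (limma adjusted p = 0.0605). SEM1 lies on chromosome 9, 76324550 to 76349261.

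PSMD6, a lid subunit on chromosome 13, 45506334 to 45529481, had the smallest adjusted p among the proteasome genes. It stood at 1.27 and 1.11 FPKM under the control label, against 15.2 and 13.4 under the knockdown label, so that libraries within a group were close. The means were 1.19 ± 0.111 and 14.3 ± 1.33 FPKM (SD, n = 2 each), a ratio of 12.0. The log2 fold change was 2.80 (SE 0.27, limma adjusted p = 0.0103), and it kept its call without either labelled control. It missed the threshold without labelled knockdown 1 or 2 (adjusted p = 0.133 and 0.0765 in limma).

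PSMD14, the deubiquitinase of the lid, stood at 68.5 and 69.8 FPKM under the control label, against 99.6 and 135 under the knockdown label (log2 fold change 0.74, SE 0.28, limma adjusted p = 0.162). PSMD13 stood at 13.9 and 11.7 FPKM under the control label, against 31.3 and 22.4 under the knockdown label (log2 fold change 1.00, SE 0.30, limma adjusted p = 0.105). Both were without overlap between the groups. PSMD8 had the lowest fold change in the lid. It stood at 27.7 and 19.6 FPKM under the control label, against 8.52 and 12.8 under the knockdown label, without overlap (log2 fold change -1.09, SE 0.34, limma adjusted p = 0.110). PSMD7, PSMD11 and PSMD12 overlapped between the groups, with fold changes of 0.79, 0.0098 (negative with TPM) and -0.096 (positive with median-ratio scaling). PSMD3 stood at 1.30 and 1.54 FPKM under the control label, against 0.438 and 0.501 under the knockdown label, and its mean was just under the filter.

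**Figure D4:**
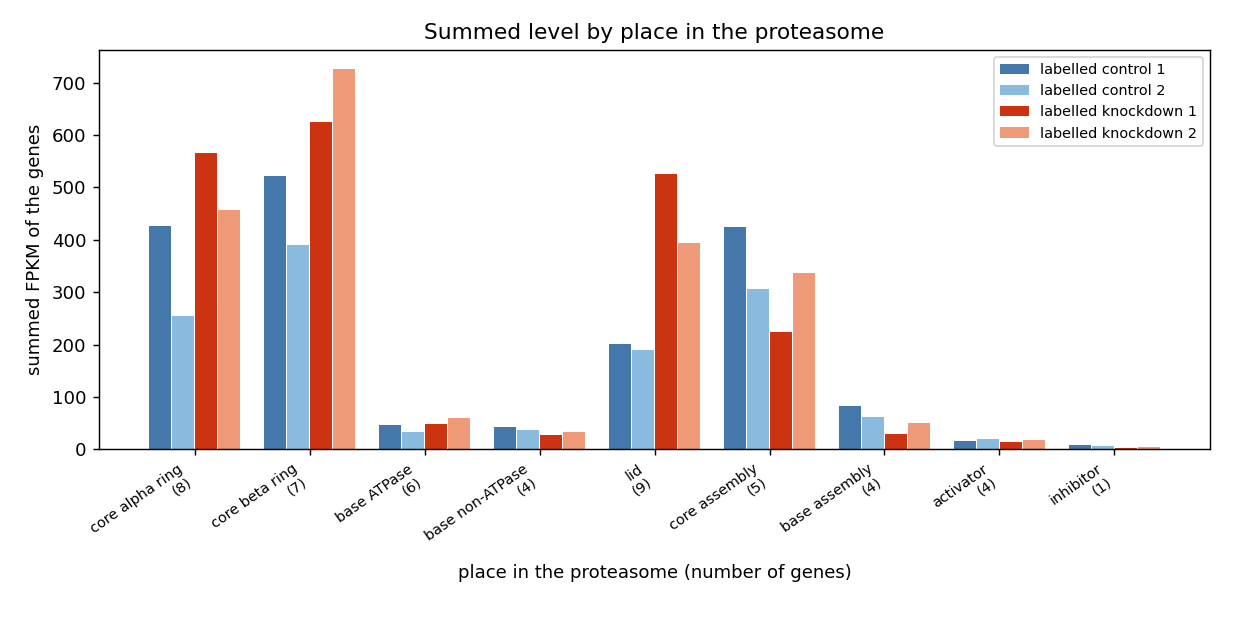
Summed FPKM of the genes at each place in the proteasome, with a bar for each library and the number of genes in brackets. The lid sum is 201 and 189 under the control label, against 526 and 394 under the knockdown label, while the base assembly sum is lower in both labelled knockdowns.

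None of the assembly factors passed the threshold. At an unadjusted p under 0.05 in limma, 1 core factor (POMP) was higher and 1 base factor (PSMD9) was lower. The shares of all genes tested at that cut were 14.0% higher and 13.9% lower. POMP, which guides the beta rings, stood at 3.04 and 3.96 FPKM under the control label, against 7.03 and 7.70 under the knockdown label, without overlap (log2 fold change 0.90, SE 0.28, limma adjusted p = 0.113). Its row is a non-coding transcript record. PSMG2, the partner of PSMG1, stood at 0.734 and 0.568 FPKM under the control label, against 1.16 and 3.59 under the knockdown label (log2 fold change 0.93, SE 0.42), while PSMG1 itself had a fold change of -0.48 (SE 0.33). PSMG3 overlapped between the groups, at 0.36 (SE 0.41), and PSMG4 reached at most 0.246 FPKM.

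The 3 tested base chaperones all had negative fold changes, with a median of -0.30, although PSMD10 turned positive with median-ratio scaling. Without labelled knockdown 1, PSMD5 and PSMD10 were positive, at 0.15 and 0.38, and the median was 0.15. PSMD9 had the lowest fold change of all tested proteasome genes and was close to the threshold. It stood at 53.6 and 36.9 FPKM under the control label, against 12.3 and 18.0 under the knockdown label, without overlap. This gave a log2 fold change of -1.52 (SE 0.34, limma adjusted p = 0.0572), and it passed with TPM (adjusted p = 0.0484), with a minimum mean of 5 FPKM (0.0496) and among genes above 0 in every library (0.0425, all limma). Leaving out each library in turn gave fold changes of -1.78 to -1.25 and no call. PSMD5 and PSMD10 overlapped between the groups, at -0.30 and -0.027. PAAF1 stayed under the filter at 0.348 to 0.701 FPKM.

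The activators and the inhibitor gave no call. Without adjustment 0 were higher and 2 lower at p under 0.05 in limma, against 14.0% and 13.9% of all genes tested. PSME3, a nuclear activator that opens the core without ubiquitin, stood at 8.72 and 10.6 FPKM under the control label, against 3.40 and 5.93 under the knockdown label, without overlap (log2 fold change -0.94, SE 0.34, limma adjusted p = 0.142). PSMF1, which can inhibit the core in the test tube, stood at 8.13 and 6.39 FPKM under the control label, against 2.07 and 4.15 under the knockdown label, also without overlap (log2 fold change -1.05, SE 0.36, limma adjusted p = 0.130). PSME4, the activator linked to histone degradation, stood at 7.72 and 8.62 FPKM under the control label, against 9.72 and 11.13 under the knockdown label (log2 fold change 0.32, SE 0.27). PSME2, the partner of PSME1, reached at most 0.552 FPKM.

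Over all places, 18 of the 40 tested proteasome genes had both labelled knockdowns above both labelled controls and 8 had both below. Over all tested genes these patterns took 24.7% and 35.8%. Median fold changes were positive for the alpha ring, beta ring, ATPases, lid and core assembly and negative for the other base subunits, base assembly, activators and inhibitor. The sign of the base assembly median turned without labelled knockdown 1 (0.15), and that of the activators with no filter (0.16, over 4 genes). These groups were not tested against each other. The summed FPKM of the 49 genes was 1771 and 1296 under the control label, against 2062 and 2076 under the knockdown label. Without SEM1 and PSMB7 it was 1764 and 1272 under the control label, against 1616 and 1809 under the knockdown label, which overlap.

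The 50 members lie on 15 chromosomes, with 8 each on chromosomes 7 and 12. PSMB4 and PSMD4 are 156 kb apart on chromosome 4 and had fold changes of 1.57 and -0.69. PSME1 and PSME2 are 3.96 kb apart on chromosome 7, and both were at or near 0. PSMA7 and ADRM1 are 121 kb apart on chromosome 17, and both were listed at 0 in at least 2 libraries.

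Around the proteasome, 24 of 32 listed genes of ubiquitin supply, substrate delivery and proteasome control were tested, and 2 rose and none fell (limma, Benjamini-Hochberg adjustment). These 2 are 8.33% of the 24, against 5.11% called higher and 1.46% called lower over all genes tested. Their median fold change was -0.0068. At an unadjusted p under 0.05 in limma, 5 were higher and 1 lower, against 14.0% and 13.9% of all genes tested. UBE3A, a ubiquitin ligase that can bind the proteasome, stood at 1.28 and 1.30 FPKM under the control label, against 21.1 and 7.97 under the knockdown label (log2 fold change 2.62, SE 0.46, limma adjusted p = 0.0362). NSFL1C, a cofactor of the unfolding ATPase VCP, stood at 2.59 and 3.35 FPKM under the control label, against 19.7 and 11.9 under the knockdown label (log2 fold change 2.05, SE 0.34, limma adjusted p = 0.0318). UBE3A lost its call on leaving out any library (adjusted p = 0.0574 to 0.157 in limma) and NSFL1C on leaving out any but labelled control 2 (0.0933 to 0.192). VCP itself stood at 0.963 and 5.36 FPKM under the control label, against 16.6 and 14.7 under the knockdown label (log2 fold change 2.23, SE 0.56, limma adjusted p = 0.0754). RPS27A, a ubiquitin gene, was nearer the threshold, at 1.31 and 0.357 FPKM under the control label, against 9.93 and 4.41 under the knockdown label. Its log2 fold change was 2.12 (SE 0.46, limma adjusted p = 0.0542), and it passed the filter through the labelled knockdowns.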

How the data were processed

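RNA of 4-cell embryos was sequenced in 4 libraries, 2 with each label. The labels' protocols name a SMARTer kit for library preparation. The submitters' processing notes list Sscrofa11.1 and, without settings, StringTie 2.1.7, Bowtie2 2.3.5 and cutadapt. Per the file headers, the table gives coverage, FPKM and TPM for each transcript and library. Deposited coverage is not scaled for depth, deposited FPKM is scaled by the authors to length and library size, and deposited TPM to a fixed library sum. No read counts were used, so the depth in reads is unknown.

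Rows were named from a RefSeq gene table of Sscrofa11.1 (32816 by accession, 4 by another version, 2305 by symbol, 246 by the file's name; 24 unnamed), which also gave gene positions. FPKM was summed per symbol. Paralogs, processed copies and overlapping genes can share reads, which was not measured. Genes whose mean reached 1 FPKM entered a limma 3.58.1 fit (R 4.3.3, lmFit and eBayes with trend). The response was log2(FPKM + 1) and the single term was group. Differences were tested two-sided and adjusted by Benjamini-Hochberg over all 9850 genes at 0.05. A fold change on this scale understates that of low genes. The fit was also run on simulated data in which every gene had the same spread. The spread of these genes differs, so that run does not measure reliability here.

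Every member is named. Values in every library are given for members past the threshold, for those with the largest positive and negative fold change of each place in the proteasome, and for rows of PSMA5 and of members whose rows differ in direction; pathway genes are named where past the threshold. Values given for others (such as PSMA2, PSMB5, PSMD14, VCP and RPS27A) were chosen after they were seen. Members and lists were chosen with earlier results of these data known. Alternatives were TPM, median-ratio, nuclear-sum and quantile scaling, other pseudocounts and filters, transcript rows, eBayes without trend, a replicate block and leaving out each library.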

Additional observations from a re-analysis of the deposited data

How the results depend on the processing

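Across 16 alternatives no single call among the 40 tested proteasome genes changed sign, 12 uncalled genes did, and PSMB7, PSMD6 and SEM1 kept their calls under most. In place of 5 higher proteasome genes, 3 were called with pseudocounts of 0.1 and 0.01, where 312 and 178 of all 9850 genes were called higher. With a minimum mean of 5 FPKM 3 of 32 were called (320 of 5584 over all genes). Among transcript rows 2 were called (70 of 11230 over all rows). These were PSMD6 and a PSMA5 row that passed the filter only through the labelled knockdowns. With no filter 0 were called, and 0 of all 25560 genes. In place of 0 lower genes, 1 (PSMD9) was called with TPM, where 268 of all 9850 genes were called lower. PSMD9 was also the 1 call with a minimum mean of 5 FPKM (124 of 5584 over all genes) and among genes above 0 in all libraries (211 of 9523). Among transcript rows 1 was called lower (34 of 11230 over all rows), a PSMA5 row that passed the filter only through the labelled controls. The 2 higher ubiquitin and delivery genes became 0 with a pseudocount of 0.01, no filter and transcript rows, and 0 to 2 on leaving out a library. The median fold change of the proteasome genes was 0.0089 with TPM, 0.44 with median-ratio scaling, 0.16 with a minimum mean of 5 FPKM and 0.16 with no filter, and 0.10 to 0.47 on leaving out a library. All 5 calls held with nuclear-sum and median-ratio scaling. The cause of these changes was not tested. The groups share only replicate numbers (correlation across genes of the differences between libraries 1 and 2, r = -0.143); with the replicate block 2 proteasome genes were called higher (1.27% of all genes), 0 lower (0.0812% of all genes) and 0 ubiquitin and delivery genes. The crossed pairing, chosen after seeing the data, called 4 higher and 1 lower (6.20% and 1.21% of all genes). With 2 libraries a group and no read counts, precision is limited to the spread between libraries.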
